A study of Mus musculus with 9 samples.

Results

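The genes described here are 8 of the 31053 genes in the 9 deposited count matrices, taken by their symbols. Apoe encodes a lipoprotein ligand and Vldlr one of its receptors. Hmgcs1, Idi1, Fdft1, Sqle and Msmo1 encode 5 enzymes of cholesterol synthesis, and Insig1 encodes a brake on that synthesis. They were measured by droplet single-cell RNA-seq in LSK cells (Lin- Sca1+ cKit+), the sorted bone marrow fraction that holds haematopoietic stem cells (HSCs) and multipotent progenitors, of C57BL/6 mice. The study compared 3 samples of young mice (10 to 12 weeks old), 3 samples of aged mice (over 80 weeks old) and 3 samples of aged mice treated with CASIN, an inhibitor of the small GTPase Cdc42. CASIN mice received 25 mg/kg intraperitoneally in cyclodextrin, as 4 injections given 24 h apart, and the young and aged controls received cyclodextrin alone. Bone marrow was taken on day 5, and the sorted cells were viably frozen before they were loaded. Labels assign 5 samples (young 1, young 2, aged 1, CASIN 1 and CASIN 2) to sequencing batch 1 and 4 samples (young 3, aged 2, aged 3 and CASIN 3) to sequencing batch 2. Labels do not say whether the samples of a group came from separate mice, so the p-values measure the spread between these samples.

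Cells obtain cholesterol by synthesis from acetyl-CoA or by uptake of lipoproteins. HMGCS1 makes HMG-CoA, the precursor of mevalonate. IDI1 isomerises the isoprenoid unit, FDFT1 makes squalene, SQLE oxidises it and MSMO1 removes methyl groups from the sterol ring. Most genes of the pathway are transcribed by SREBP2 (Srebf2), which INSIG1 holds back in the endoplasmic reticulum when sterols are plentiful. ApoE is carried on lipoprotein particles and binds lipoprotein receptors, VLDLR among them. On haematopoietic stem and progenitor cells of the mouse, ApoE is known to favour cholesterol efflux and to restrain proliferation.

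After filtering, 15856 of 32387 barcodes were kept, and their UMIs (unique molecular identifiers, one per captured transcript) were summed per sample and expressed as CPM, the UMIs of a gene scaled to the same total in each sum. Sequenced libraries held between 19237354 and 42780953 UMIs. Kit and Ly6a, which encode cKit and Sca1, were measured in every sample, at 112–225 and 87.9–186 CPM over all kept cells, and Cd3e, which marks T cells, stayed at or under 0.338 CPM. The batches stood apart in RNA quality: 22.9% of barcodes in batch 1 and 63.8% in batch 2 had over 10% mitochondrial UMIs and were left out, and the medians of the kept cells were 2.65–3.49% in batch 1 and 5.03–6.997% in batch 2. Up to 16 kept cell barcodes were shared between any 2 libraries. Clusters were named from marker lists, with 62 lipid genes, these 8 among them, kept out of the clustering. HSC-like cells (3501 cells, led by Ramp2, Cyr61, Tm4sf1 and Sult1a1; 180–714 cells per sample) had 8 HSC markers among their top 50 genes. LMPP-like cells (3072 cells, led by Wfdc17, Gm32554, Ccl3 and 1700003C15Rik; 190–548 per sample) had 10 LMPP markers among their top 50 genes. LMPP stands for lymphoid-primed multipotent progenitor, and the name rests on that marker list. In a finer clustering (resolution 0.8), a cluster of this name (1067 cells) had the myeloid markers Ctsg and Mpo among its top 10 genes. Ly6d, Il7r and Dntt were among the top 10 genes of a separate, unnamed cluster (333 cells). Cycling cells (2541 cells, 149–421 per sample) were the 3 clusters led by S phase or G2/M genes. The largest cluster (4117 cells), led by Ctla2a and Gsta4, matched no marker list and is called the Ctla2a cluster. Since these names were rebuilt from the counts, they may differ from those of the study.

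The start sites of 4 of the genes are shown because the results below set Apoe against the synthesis genes, and the synthesis genes are the ones on which SREBP2 acts. Each sequence is the 250 bases before the RefSeq start on GRCm38.p6, written 5′ to 3′ along the transcribed strand, with the sterol element TCACNCCAC (read on both strands) and the CCAAT box (CCAAT, or ATTGG on the other strand) in capitals. RefSeq windows were matched for 6 of the 8 genes.
Hmgcs1, chr13:119690101-119690350, plus strand: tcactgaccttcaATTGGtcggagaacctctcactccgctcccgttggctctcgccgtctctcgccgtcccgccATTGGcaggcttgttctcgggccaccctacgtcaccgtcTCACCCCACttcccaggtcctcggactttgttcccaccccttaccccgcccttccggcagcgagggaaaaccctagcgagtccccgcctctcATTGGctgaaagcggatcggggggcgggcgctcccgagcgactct
Msmo1, chr8:64733579-64733828, minus strand: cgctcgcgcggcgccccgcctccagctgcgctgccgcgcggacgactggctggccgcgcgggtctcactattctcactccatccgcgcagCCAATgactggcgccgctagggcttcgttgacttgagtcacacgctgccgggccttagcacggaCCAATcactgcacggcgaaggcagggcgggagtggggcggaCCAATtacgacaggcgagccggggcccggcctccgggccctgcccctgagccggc
Insig1, chr5:28071162-28071411, plus strand: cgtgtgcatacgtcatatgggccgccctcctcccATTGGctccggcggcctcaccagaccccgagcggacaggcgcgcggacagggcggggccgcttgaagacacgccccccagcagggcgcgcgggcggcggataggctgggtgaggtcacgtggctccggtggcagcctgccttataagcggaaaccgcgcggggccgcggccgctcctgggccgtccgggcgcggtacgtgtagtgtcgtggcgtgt
Apoe, chr7:19699189-19699438, minus strand: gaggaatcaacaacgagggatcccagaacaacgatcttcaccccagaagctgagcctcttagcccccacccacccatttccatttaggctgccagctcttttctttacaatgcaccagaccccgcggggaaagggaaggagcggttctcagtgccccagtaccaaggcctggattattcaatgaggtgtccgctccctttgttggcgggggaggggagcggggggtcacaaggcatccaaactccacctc
The Hmgcs1 sequence held 1 sterol element, 137 bases before the start, and 3 CCAAT boxes. In Msmo1 there were 3 CCAAT boxes and in Insig1 1, and neither motif was found before the most upstream Apoe start, shown here, or its other RefSeq starts. Over RefSeq windows from 250 bases before to 50 after the start, the sterol element was found in 1.24% of 32851 windows and the CCAAT box in 37.4%. The shorter core of the sterol element, CACNCCAC, not in capitals above, was in 6.24% of windows. Insig1 held this core on the other strand, 9 bases before the start (GTGGCGTG). Of the 20 genes of the cholesterol synthesis list, 15 had a window, of which 1 held the sterol element and 14 a CCAAT box. A match of letters is not a binding site, and these data do not measure binding.

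Apoe (ENSMUSG00000002985, chr7:19696109-19699188, minus strand, GENCODE M21 on GRCm38) was highest in HSC-like cells and lowest in LMPP-like cells among these 4 classes in every sample. Its level in HSC-like cells was 326, 391 and 556 CPM in young 1 to 3, 1087, 1328 and 803 CPM in aged 1 to 3, and 976, 1172 and 1126 CPM in CASIN 1 to 3. Its level in LMPP-like cells was 25.5, 23.8 and 23.8 CPM in young 1 to 3, 54.7, 44.3 and 29.7 CPM in aged 1 to 3, and 34.8, 72.9 and 34.9 CPM in CASIN 1 to 3. Within a sample the HSC-like level was 12.8–32.2 times the LMPP-like level (median 23.3, 9 of 9 samples). It was also above that of the Ctla2a cluster (1.49–4.28 times, median 2.99) and of cycling cells (1.12–4.97 times, median 3.11) in 9 of 9 samples. These ratios describe cells that were clustered without Apoe, and carry no test.

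**Figure D1:**
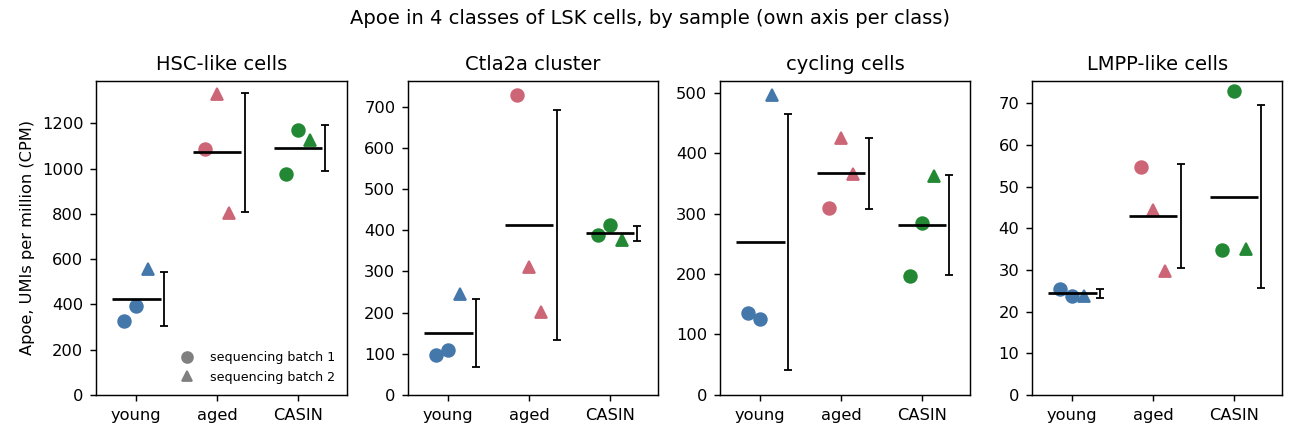
Apoe CPM (linear axes, each class on its own scale) in HSC-like cells, the Ctla2a cluster, cycling cells and LMPP-like cells, 1 point per sample, circles for sequencing batch 1 and triangles for batch 2, with the mean (line) and SD (bar) of 3 samples. In HSC-like cells the aged (803–1328 CPM) and CASIN samples (976–1172 CPM) lie above the young samples (326–556 CPM), and in cycling cells young 3 lies far above young 1 and young 2.

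Over the 13 clusters, mean Apoe ran from 863 CPM in HSC-like cells, through 536 CPM in an S phase cluster that also carried Pf4 and Itga2b, 476 CPM in cells led by interferon-induced genes and 453 CPM in cells led by MHC class II genes, to 38.3 CPM in LMPP-like cells and 12.7 CPM in cells led by Ly6d and Il7r. Clusters next to each other in the order of all 13, of which only some are named here, had overlapping ranges over samples. The S phase cluster alone ran from 201 and 205 CPM in young 1 and young 2 to 1065 CPM in young 3. HSC-like cells held the most Apoe of the 13 clusters in 7 of 9 samples, the exceptions being young 3, where this S phase cluster was higher, and aged 1, where a low-UMI cluster led by Igkc was (1121 CPM). Marker gates on the UMIs, HSC with Procr and without Flt3 or Cd48 and LMPP with Flt3 and without Procr, gave smaller ratios of 8.17–19.7 in batch 1 and 3.96–10.9 in batch 2.

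**Figure D2:**
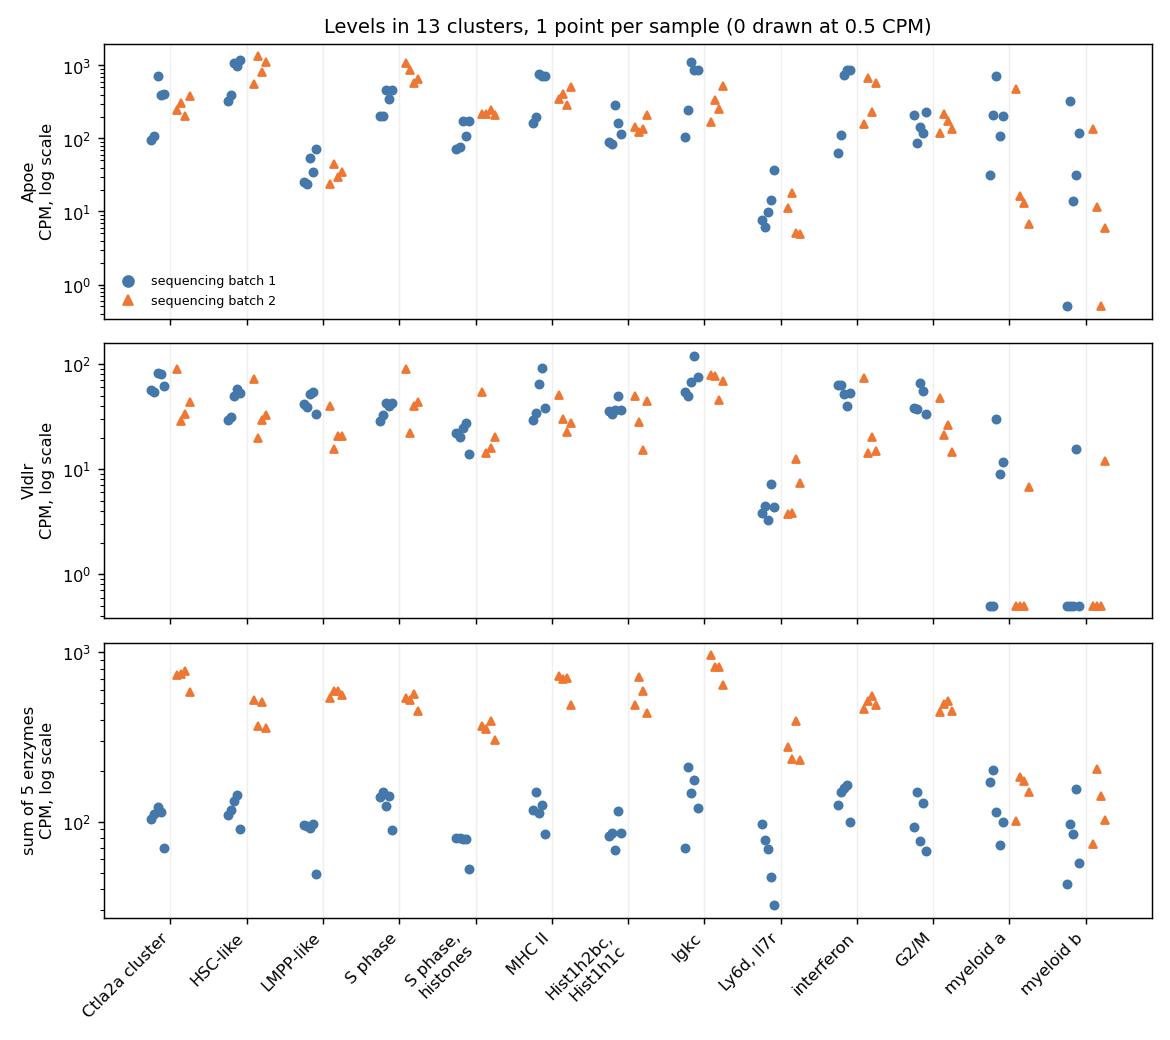
Apoe, Vldlr and the sum of the 5 synthesis enzymes (CPM, log axes, 0 drawn at 0.5 CPM) in each of the 13 clusters, 1 point per sample, circles for batch 1 and triangles for batch 2. Apoe is high in HSC-like and low in LMPP-like and Ly6d, Il7r cells in both batches, whereas the enzyme sum separates the batches in 11 of the larger clusters and not in the 2 small myeloid clusters.

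As a class, aged HSC-like cells carried more Apoe than young ones. The mean was 1073 ± 263 CPM in aged and 424 ± 118 CPM in young samples (SD, n = 3 each), without overlap, a log2 fold change of 1.36 (SE 0.18, 95% interval 0.97 to 1.75; adjusted p = 0.000472, edgeR's quasi-likelihood test with the batch as a term). The difference was 1.68 within batch 1 and 0.95 within batch 2. CASIN samples, at 1092 ± 103 CPM, also lay above the young samples, by 1.45 (SE 0.18, 1.07 to 1.84; adjusted p = 0.000152), with 1.62 within batch 1 and 1.13 within batch 2. Apoe was the only one of the 8 genes called in either comparison, and 8.81% and 14.4% of the 11357 genes tested were called. Between CASIN and aged samples, Apoe differed by 0.10 (SE 0.18, −0.29 to 0.48; adjusted p = 1.00). In that comparison edgeR called 0 of the tested genes (0.0%), 376 had an unadjusted p under 0.05, and DESeq2 called 11, none of them among the 8 genes. These comparisons share samples, the young samples standing in both of the called ones. A finer clustering (resolution 0.8) split HSC-named cells into a cluster with Vwf among its top 10 genes (2858 cells) and another led by Fosb and Fos (1078 cells). A change in the mix within HSC-like cells cannot be told apart from a change in their Apoe level here. Without the batch term the aged call was lost (1.39, adjusted p = 0.153), as it was with a mitochondrial limit of 5% (0.79, adjusted p = 0.110), which left as few as 27 HSC-like cells in a sample.

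More of the aged HSC-like cells had an Apoe UMI. With every cell thinned to 4000 UMIs, the share was 58.3, 64.5 and 74.7% in young, 95.7, 90.1 and 80.8% in aged, and 92.5, 92.96 and 90.9% in CASIN samples. The young samples did not overlap either of the other groups. The difference was 23.0 percentage points for aged over young (34.3 in batch 1, 10.7 in batch 2) and 26.3 for CASIN over young (31.3 and 16.2), each with p = 0.1 in a two-sided exact permutation test, the smallest that 3 against 3 samples allow, and 0.8 after adjustment over the 8 genes. CASIN and aged samples differed by 3.28 points (exact p = 0.7). At the same depth of 4000 UMIs the share averaged 10.9% in LMPP-like cells (8.06–17.5%) and 2.15% in the cells led by Ly6d and Il7r (0–5.77%), a lymphoid-marked cluster in which Apoe was lowest. Without thinning the HSC-like means were 83.5, 95.2 and 98.2%, and 332 cells with fewer than 4000 UMIs (6–68 per sample) were left out of the thinned values.

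Markers of other cells were set beside this result because macrophages are known to make much Apoe. In HSC-like cells 12 macrophage genes summed to 14.8–48.4 CPM in the young, 14.2–37.9 CPM in the aged and 10.98–39.8 CPM in the CASIN samples, with Adgre1 and Cd5l at 0 in all samples and C1qa at 0 in all but CASIN 3 (0.152 CPM). The 8 stromal genes summed to 184 CPM in young 3 and 7.76–43.4 CPM in the other samples, and Hmox1 reached 27.9 CPM in young 3, the young sample with the most Apoe. The 8 lymphocyte genes summed to 48.7, 62.3 and 120 CPM in young 1 to 3, to 33.9, 243 and 576 CPM in aged 1 to 3, and to 46.8, 134 and 170 CPM in CASIN 1 to 3, with Cd3e at 0, and the 6 red cell genes to 92.6, 75.7 and 12.7 CPM, 36.5, 17.1 and 39.2 CPM, and 49.4, 16.6 and 25.2 CPM in the same order. The groups overlapped in each of these lists except the stromal one. There the aged samples (9.79–14.7 CPM) lay below the CASIN samples (15.8–43.4 CPM). Neutrophil genes (6) summed to 2.53–27.5 CPM, and megakaryocyte genes (7, Gp6 at 0) to 182–216 CPM in the young, 202–273 CPM in the aged, and 228–257 CPM in the CASIN samples, where young and CASIN did not overlap. The cell cycle moved with the groups too: 74.3–89.4% of young, 91.7–94.3% of aged and 95.3–97.8% of CASIN HSC-like cells had no cycle score above 0. Over the cells without a cycle score alone, Apoe in HSC-like cells was again called for aged over young (1.27, adjusted p = 0.000204) and CASIN over young (1.31, adjusted p = 8.48e-05). The part of these lists in the result was not tested.

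In the other classes the Apoe differences pointed the same way but did not pass the test. In LMPP-like cells the aged samples lay above the young ones by 1.01 (SE 0.25; adjusted p = 0.160 by edgeR) and the CASIN samples by 1.01 (SE 0.24; adjusted p = 0.177), without overlap with young. Few genes were called there, 0.309% and 0.191% of the 10994 tested. In the Ctla2a cluster Apoe differed by 1.496 for aged over young (SE 0.44, adjusted p = 0.122, edgeR), but by 2.86 in batch 1 and 0.07 in batch 2. Aged 1 (729 CPM) set the batch 1 value there, with aged 2 at 310 and aged 3 at 200 CPM against 96.0, 109 and 244 CPM in young samples. In cycling cells the difference was 0.45 (adjusted p = 0.491, edgeR), with 1.24 in batch 1 and −0.35 in batch 2. Megakaryocyte genes in cycling cells summed to 85.6 and 72.5 CPM in young 1 and young 2. They summed to 278.5 CPM in young 3 and 150.5–292 CPM in the aged and CASIN samples. A change in the mix of cycling cells therefore cannot be told apart from a change in their Apoe level. Over all LSK cells, where a change in the mix of cells and a change in their level cannot be told apart, Apoe differed by 1.38 (SE 0.38, adjusted p = 0.0723) for aged over young and 1.44 (adjusted p = 0.0657) for CASIN over young. Without young 3, aged over young was called for Apoe in all of these sums, at 2.42 in the Ctla2a cluster (adjusted p = 0.00465), 1.17 in cycling cells (adjusted p = 0.00570) and 2.15 over all LSK cells (adjusted p = 0.00399, edgeR). Young 3 is the only young sample of batch 2, so these values compare with young samples of batch 1 alone. The share of all genes called in these fits without young 3 is not given. A gained call therefore cannot be told apart from a change in the whole fit. With all samples in the fit edgeR called none of the 8 genes in these 3 sums, and DESeq2 called Apoe over all LSK cells for CASIN over young (1.41, adjusted p = 0.0398), while by edgeR 1.69% and 0.454% (Ctla2a cluster), 0.714% and 0.446% (cycling cells) and 4.1% and 4.27% (all LSK) of genes were called for aged and for CASIN over young.

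Vldlr (ENSMUSG00000024924, chr19:27216484-27254231, plus strand), which takes up ApoE-bearing lipoproteins, did not follow Apoe. Its level in HSC-like cells was 29.4, 31.1 and 71.9 CPM in young 1 to 3, 50.1, 19.8 and 29.1 CPM in aged 1 to 3, and 57.3, 52.6 and 32.6 CPM in CASIN 1 to 3, so that all groups overlapped. The fold changes were −0.18 (SE 0.35, −0.94 to 0.57) for aged over young, 0.40 (SE 0.33) for CASIN over aged and 0.21 (SE 0.34) for CASIN over young, and none passed. For CASIN over young the batches had opposite signs, 0.89 within batch 1 and −1.01 within batch 2. Without young 3, the one young sample of batch 2, the aged difference was 0.70 (adjusted p = 0.0172, edgeR) and the CASIN difference 0.96 over young, also called. These values rest on young samples of batch 1 alone and cannot tell young 3 from its batch. The share of all genes called in that fit is not given, so the calls cannot be told apart from a change in the whole fit. Among the 4 classes Vldlr was highest in the Ctla2a cluster, where it was among the top 10 genes although kept out of the clustering, and that cluster exceeded HSC-like, LMPP-like and cycling cells in 9 of 9 samples. Between HSC-like and LMPP-like cells, HSC-like cells were higher in 4 of 4 samples of batch 2 (1.27–1.82 times) but in 2 of 5 of batch 1 (0.704–1.57 times). In LMPP-like cells Vldlr was lower in batch 2 than in batch 1, by a log2 fold change of −0.90 (SE 0.22, adjusted p = 0.00222, edgeR).

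The 5 synthesis enzymes differed far more between the sequencing batches than between young, aged and CASIN samples. Hmgcs1 (ENSMUSG00000093930, chr13:119690379-119708260, plus strand), the synthase of HMG-CoA, stood at 11.6–18.1 CPM in the 5 samples of batch 1 and 54.6–109 CPM in the 4 samples of batch 2 in HSC-like cells, a log2 fold change of 2.25 (SE 0.17, adjusted p = 5.26e-08, edgeR). In LMPP-like cells it stood at 13.1–23.5 CPM and 113–140 CPM, a log2 fold change of 2.92 (SE 0.14, adjusted p = 8.54e-10). The batches did not overlap for this gene in either class.

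Idi1 (ENSMUSG00000058258, chr13:8885501-8892451, plus strand), the isomerase, was 22.9–40.9 CPM in batch 1 and 48.0–87.5 CPM in batch 2 in HSC-like cells, and 14.0–35.5 CPM against 78.3–91.5 CPM in LMPP-like cells. The batch differences were 0.87 (SE 0.15, adjusted p = 0.000153) and 1.499 (SE 0.17, adjusted p = 2.24e-06, edgeR). Fdft1 (ENSMUSG00000021273, chr14:63145150-63179578, minus strand), squalene synthase, had the lowest counts of the 5, at 9.4–19.4 CPM in batch 1 and 22.8–33.7 CPM in batch 2 in HSC-like cells (0.88, SE 0.19, adjusted p = 0.000853). It stood at 4.2–11.2 CPM and 17.4–24.0 CPM in LMPP-like cells (1.09, SE 0.22, adjusted p = 0.000535). Both enzymes were thus higher in batch 2 without overlap in either class.

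Sqle (ENSMUSG00000022351, chr15:59315077-59331192, plus strand), squalene epoxidase, was 15.3–27.2 CPM in batch 1 and 46.5–79.7 CPM in batch 2 in HSC-like cells, and 5.6–17.3 CPM against 55.0–72.2 CPM in LMPP-like cells. Its batch differences were 1.51 (SE 0.18, adjusted p = 4e-06) and 2.19 (SE 0.17, adjusted p = 5.64e-08, edgeR). Msmo1 (ENSMUSG00000031604, chr8:64718139-64733792, minus strand), the methylsterol monooxygenase, had the largest batch difference of the 8 genes. Its level in HSC-like cells was 31.0, 31.9, 39.5, 41.7 and 28.1 CPM in young 1, young 2, aged 1, CASIN 1 and CASIN 2, and 215, 167, 228 and 179 CPM in young 3, aged 2, aged 3 and CASIN 3. In LMPP-like cells the same samples held 17.7, 18.7, 25.9, 19.9 and 11.9 CPM, and 257, 283, 276 and 266 CPM. Between the batches the samples did not overlap. The batch difference of Msmo1 was 2.41 (SE 0.13, adjusted p = 2.24e-09) in HSC-like and 3.73 (SE 0.13, adjusted p = 3.94e-11) in LMPP-like cells, the latter a 13.3-fold difference.

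**Figure D3:**
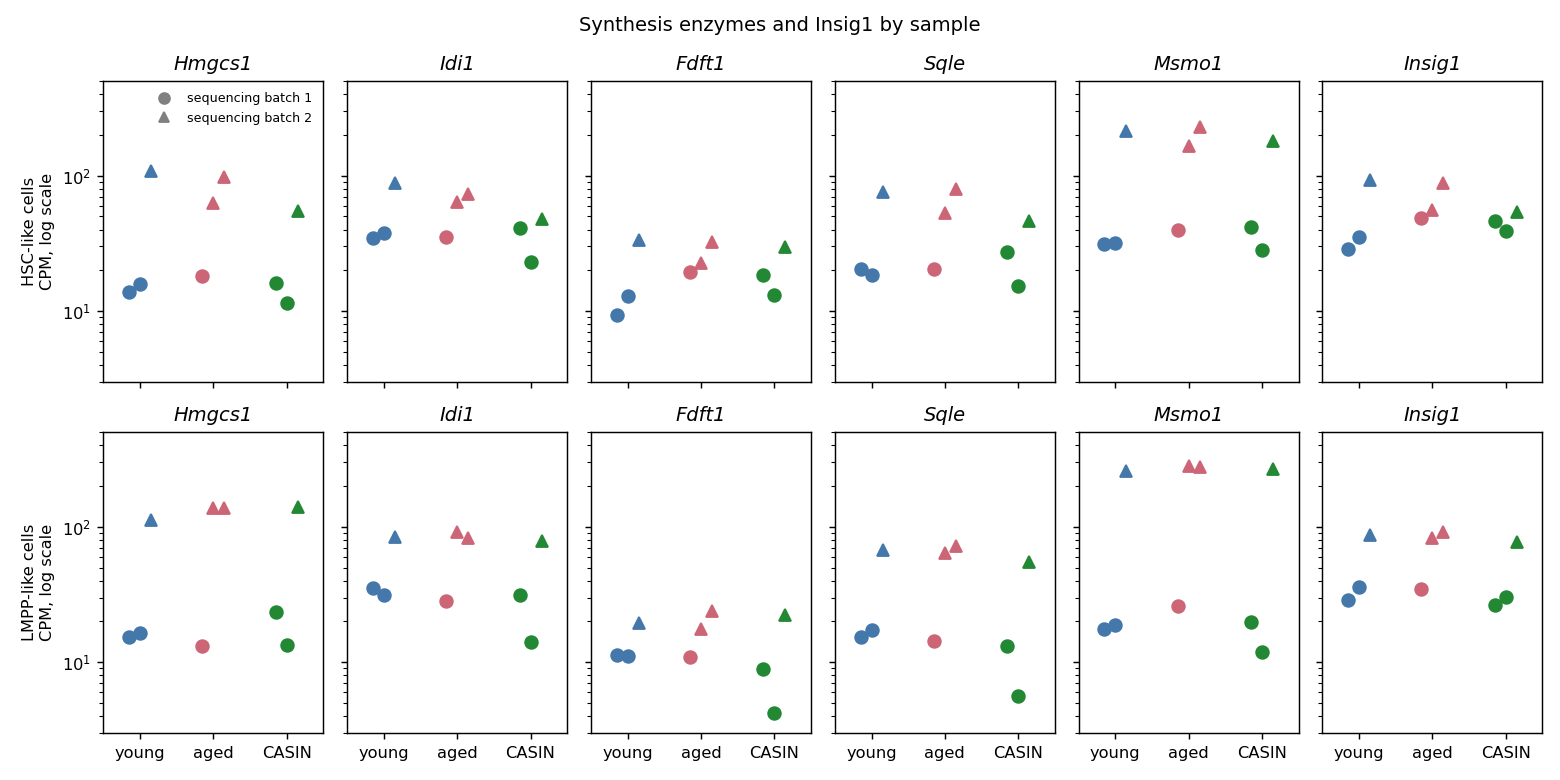
CPM (log axes) of the 5 enzymes and Insig1 in HSC-like cells (top) and LMPP-like cells (bottom), 1 point per sample by group, circles for sequencing batch 1 and triangles for batch 2. In every panel the triangles lie above the circles, and within batch 1 Sqle (5.6–17.3 CPM) and Fdft1 (4.2–11.2 CPM) spread widely in LMPP-like cells.

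Insig1 (ENSMUSG00000045294, chr5:28071363-28078662, plus strand), itself an SREBP target, followed the enzymes. It stood at 28.9–48.5 CPM in batch 1 and 53.5–92.4 CPM in batch 2 in HSC-like cells (0.71, SE 0.18, adjusted p = 0.00302), and at 26.4–36.1 CPM and 76.7–91.3 CPM in LMPP-like cells (1.31, SE 0.11, adjusted p = 1.69e-07, edgeR). The 5 enzymes and Insig1 were called higher in batch 2 in cycling cells and in the Ctla2a cluster as well, where Msmo1 differed by 3.13 and 3.45.

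These counts need the background, since the batches differed in a large part of the transcriptome. In HSC-like cells 34.3% of the genes tested were called higher and 35.3% lower in batch 2, in LMPP-like cells 34.1% and 33.3%, and 34.9% and 33.9% were higher in cycling cells and the Ctla2a cluster. A call alone therefore sets the enzymes little apart, and the size of the difference sets some of them further. How many of all genes had no overlap between the batches was not counted. A lack of overlap alone therefore cannot set the enzymes apart. In LMPP-like cells 0.828% of tested genes had a higher batch fold change than Msmo1, 1.55% a higher one than Hmgcs1 and 2.93% a higher one than Sqle. In HSC-like cells these shares were 2.89, 3.36 and 7.55%, whereas 18.6% of genes exceeded Idi1, 18.2% Fdft1 and 23.0% Insig1. Apoe did not differ between the batches in HSC-like cells beyond its error (0.15, adjusted p = 0.373, edgeR). It was higher in batch 2 in cycling cells (0.88, adjusted p = 0.00365, edgeR), where megakaryocyte genes also differed between samples. In LMPP-like cells Apoe was lower in batch 2 (−0.51, SE 0.21, adjusted p = 0.0429, edgeR). The sequencing batch cannot be told apart from the RNA quality and the other handling that it carried.

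Between young, aged and CASIN samples, none of the 5 enzymes and neither Insig1 nor Vldlr passed the test in HSC-like, LMPP-like or cycling cells, in the Ctla2a cluster or over all LSK cells. For aged over young in HSC-like cells the log2 fold changes ran from −0.09 (Idi1) to 0.32 (Fdft1), and in LMPP-like cells from −0.08 (Idi1) to 0.25 (Msmo1). The intervals leave room for moderate differences: for Hmgcs1 in HSC-like cells, −0.50 to 0.38, and for Msmo1, −0.19 to 0.49. The level of Msmo1 was 145 ± 96.2 CPM in aged and 92.7 ± 106 CPM in young HSC-like cells (SD, n = 3 each), but these means are over unequal batches, since 2 aged libraries and 1 young library belong to batch 2.

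For CASIN over aged the 5 enzymes lay at or below 0 in HSC-like cells, at −0.41 for Hmgcs1 (−0.85 to 0.03), −0.28 for Idi1 (−0.67 to 0.11), −0.02 for Fdft1, −0.21 for Sqle and −0.10 for Msmo1. In LMPP-like cells the values were 0.08 for Hmgcs1, −0.29 for Idi1, −0.27 for Fdft1, −0.48 for Sqle (SE 0.20, adjusted p = 0.812, edgeR) and −0.30 for Msmo1. In the Ctla2a cluster Msmo1 stood at −0.52 (adjusted p = 0.979, edgeR), Idi1 at −0.48 and Sqle at −0.40. No gene at all was called by edgeR for CASIN over aged in these classes, while 650 genes in LMPP-like cells, 840 in cycling cells, 494 in the Ctla2a cluster and 439 over all LSK cells had an unadjusted p under 0.05. DESeq2 called 0, 5, 2 and 1 genes in the same order, none of them among the 8. The classes come from the same samples, so that a sign shared between them is not a repeat.

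For CASIN over young, Hmgcs1 in HSC-like cells stood at −0.47 (SE 0.21, adjusted p = 0.173, edgeR), with −0.08 within batch 1 and −0.87 within batch 2. Sqle in LMPP-like cells stood at −0.55 (SE 0.20, adjusted p = 0.609), with −0.88 and −0.24 within the batches. Idi1 stood at −0.43 in cycling cells (SE 0.14, adjusted p = 0.336) and at −0.54 in the Ctla2a cluster (adjusted p = 0.261). None of these passed the adjustment over all genes.

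**Figure D4:**
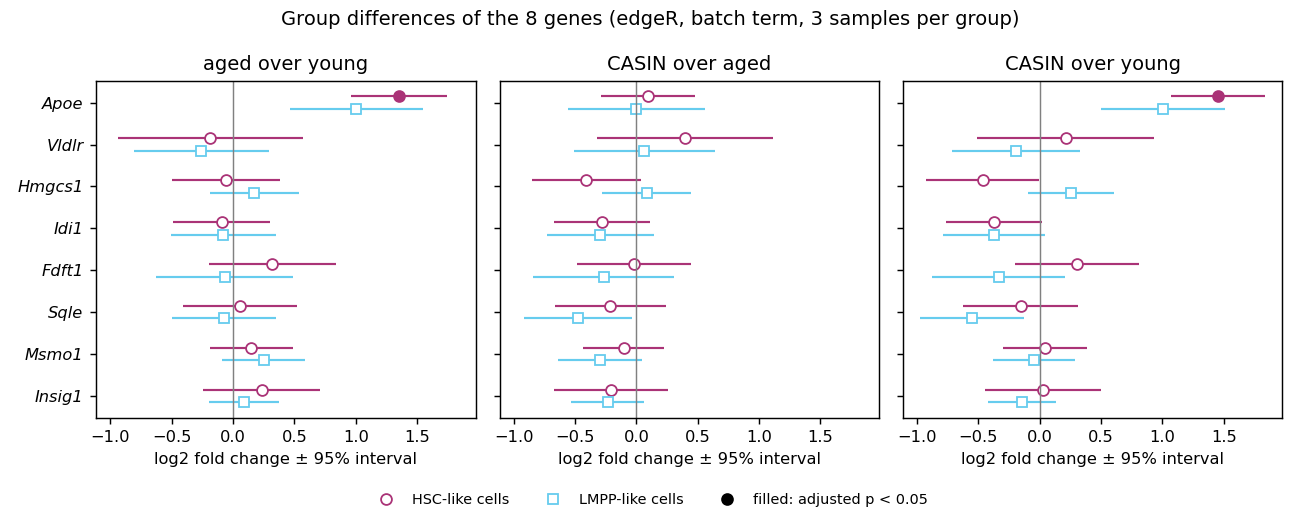
Log2 fold changes (points) with 95% intervals (lines) of the 8 genes for aged over young, CASIN over aged and CASIN over young, circles for HSC-like and squares for LMPP-like cells, with filled points where the adjusted p is under 0.05 (edgeR, batch term, 3 samples per group). Only Apoe in HSC-like cells is filled, at 1.36 for aged over young and 1.45 for CASIN over young, and the points of the 5 enzymes lie between −0.55 and 0.32.

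Whether the sum of the 5 enzymes was higher in HSC-like or in LMPP-like cells depended on the batch. The summed level of the 5 enzymes in batch 1 was 110, 117, 133, 144 and 91.0 CPM in HSC-like cells of young 1, young 2, aged 1, CASIN 1 and CASIN 2, and 95.2, 94.8, 92.2, 96.5 and 49.0 CPM in their LMPP-like cells, higher in HSC-like cells in 5 of 5 samples (1.15–1.85 times). In batch 2 it was 521, 370, 510 and 358 CPM in HSC-like cells of young 3, aged 2, aged 3 and CASIN 3, and 539, 595, 591 and 561 CPM in their LMPP-like cells, higher in HSC-like cells in 0 of 4 samples (0.621–0.967 times). By marker gates the order in batch 2 turned, with HSC cells higher in 3 of 4 samples (0.983–1.28 times). With a mitochondrial limit of 5% or a finer clustering HSC-like cells were higher in 1 of 4 (0.715–1.10 and 0.644–1.02 times). They were higher in 0 of 4 over cells without a cycle score above 0 (0.473–0.797 times). The same held in cells thinned to 4000 UMIs (0.562–0.845 times) and without the top 5% of doublet scores (0.569–0.951 times). In the main clusters the enzyme sum was thus opposite to Apoe in batch 2 and not in batch 1, and by marker gates the batch 2 order did not hold. Msmo1 made up a large part of the batch 2 sum, at 283 of 595 CPM in LMPP-like cells of aged 2. The ratio of young 3 stood near 1 (0.967). Not every single enzyme shared the order of the sum, as given below.

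**Figure D5:**
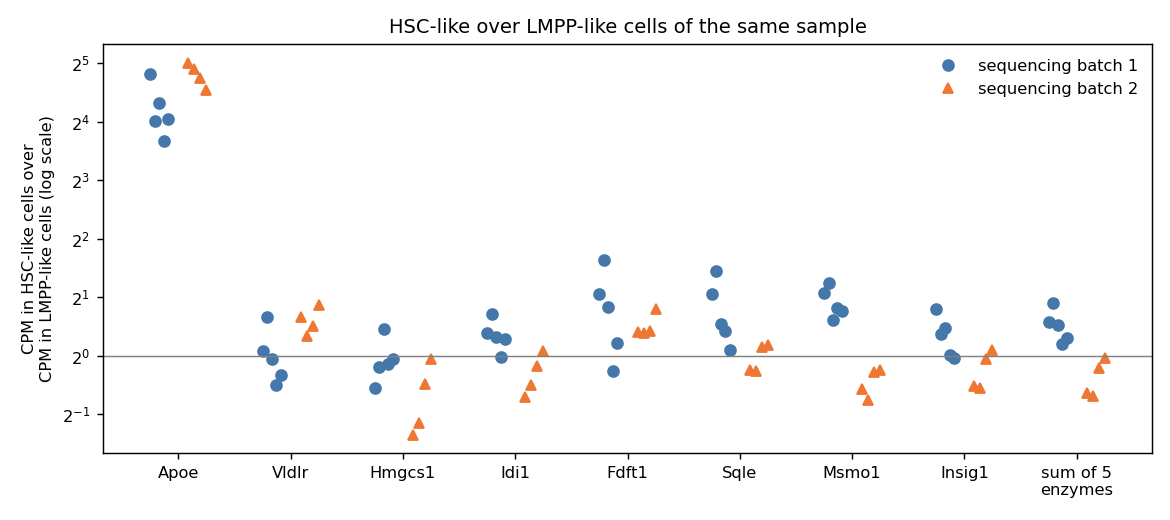
Ratio of the CPM in HSC-like to the CPM in LMPP-like cells of the same sample (log axis, 1 marked by a line) for the 8 genes and for the sum of the 5 enzymes, circles for sequencing batch 1 and triangles for batch 2. Apoe lies at 12.8–32.2 in all samples, and the enzyme sum lies above 1 in batch 1 (1.15–1.85) and below 1 in batch 2 (0.621–0.967).

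The genes differed in this ratio. Msmo1 had the clearest turn, higher in HSC-like cells in 5 of 5 samples of batch 1 (1.53–2.36 times) and in 0 of 4 of batch 2 (0.589–0.839 times). Hmgcs1 was higher in LMPP-like cells in 4 of 5 samples of batch 1 and 4 of 4 of batch 2 (HSC-like over LMPP-like 0.683–1.38 and 0.390–0.965). Fdft1 did the reverse, higher in HSC-like cells in 4 of 5 samples of batch 1 and 4 of 4 of batch 2 (1.31–1.74 times). Sqle was higher in HSC-like cells in 5 of 5 samples of batch 1 (1.07–2.72 times) and 2 of 4 of batch 2, and Idi1 and Insig1 in 4 of 5 and 1 of 4. LMPP-like cells were not the class with most of these transcripts. The mean sum of the 5 enzymes was highest in the low-UMI cluster led by Igkc, at 441 CPM. It was 375 CPM in the Ctla2a cluster and 357 CPM in the cells led by MHC class II genes, against 302 CPM in LMPP-like and 262 CPM in HSC-like cells. These means are over both batches, and in batch 1 the sum was higher in HSC-like than in LMPP-like cells in 5 of 5 samples.

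A direct test asked whether a difference between groups was itself unlike in HSC-like and LMPP-like cells of the same samples. It covered 12041 genes, of which 2.84%, 0.0% and 6.31% were called for aged over young, CASIN over aged and CASIN over young. CASIN and young samples differ in both age and treatment, so the last comparison mixes both. For CASIN over young, 2 of the 8 genes passed. The Apoe difference was larger in HSC-like than in LMPP-like cells by 0.53 (SE 0.16, 0.20 to 0.85; adjusted p = 0.0478, edgeR). The Hmgcs1 difference in HSC-like cells minus that in LMPP-like cells was −0.80 (SE 0.23, −1.28 to −0.33; adjusted p = 0.0380), from −0.47 in HSC-like and 0.26 in LMPP-like cells, neither of which passed alone. For aged over young none passed, Apoe standing at 0.40 (SE 0.17, adjusted p = 0.256). For CASIN over aged edgeR called none of all genes, with 609 at an unadjusted p under 0.05, Vldlr at 0.43 and Hmgcs1 at −0.47 (adjusted p = 0.951 for both). The Hmgcs1 call was lost without young 3, the one young sample of batch 2 (−0.17, adjusted p = 0.818, edgeR), CASIN 1, CASIN 2 or CASIN 3, and the Apoe call without young 1, CASIN 1 (0.32, adjusted p = 0.262) or CASIN 3. Against the Ctla2a cluster (11987 genes; 0.4%, 0.0417% and 1.89% called) none of the 8 genes passed, with Apoe at −0.16, 0.10 and −0.06.

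Among the other genes of cholesterol synthesis, 1 was called between the groups. The list holds 20 genes, and 14 were tested in HSC-like cells beside the 5 enzymes: 0 were called for aged over young (median log2 fold change −0.09, against 0.00 over all genes tested, of which 8.81% were called), 0 for CASIN over aged (median −0.12, against 0.01, 0.0% called) and 1 for CASIN over young (median −0.27, against 0.01, 14.4% called). That gene was Fdps, which encodes farnesyl diphosphate synthase and fell by 0.68 on the log2 scale (SE 0.15, adjusted p = 0.00620, edgeR), from 55.9 CPM in young to 33.7 CPM in CASIN samples, with −0.80 within batch 1 and −0.48 within batch 2. In LMPP-like cells 0 of these 14 were called in any comparison, with medians of −0.02, −0.25 and −0.19, where 0.309%, 0.0% and 0.191% of all genes were called. Srebf2 was not called in either class.

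In the neighbouring lists of HSC-like cells 4 genes were called between the groups, to be read against the 8.81% and 14.4% of all genes called for aged and for CASIN over young. All 7 genes of SREBP control were tested and 0 were called (medians 0.06, −0.00 and −0.02). Of 10 genes of lipoprotein uptake tested, Apoe alone was called. Of 11 genes of sterol storage and efflux tested, Npc1, whose product exports cholesterol from lysosomes, was lower in aged (−0.63, SE 0.18, adjusted p = 0.0415) and CASIN (−0.78, SE 0.18, adjusted p = 0.00942, edgeR) than in young samples. Of 9 genes of fatty acid synthesis, the desaturase gene Scd1 was higher in aged (1.45, SE 0.37, adjusted p = 0.0230) and CASIN samples (1.55, SE 0.35, adjusted p = 0.00812, edgeR), from a low level of 2.05 CPM in young to 5.79 and 5.59 CPM, and Fads1, another desaturase, was higher in CASIN than young samples (0.80, SE 0.22, adjusted p = 0.0237). In LMPP-like cells 0 genes of these lists were called in any comparison.

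By batch, the 5 enzymes made up much of the pathway's calls. The cholesterol synthesis list includes them, and of its other 14 genes tested, 5 were higher and 5 lower in batch 2 in HSC-like cells (median −0.32, against −0.03 over all genes), with 34.3% of all genes higher and 35.3% lower. In LMPP-like cells 6 of the 14 were higher and 3 lower (median 0.20, against −0.01), with 34.1% and 33.3% of all genes, so in neither class did these shares stand far from the background. Genes that were lower in batch 2, chosen here after their values were seen, were Mvk, Ebp, Acat2, Pmvk and Dhcr7 in HSC-like cells (−0.74, −0.80, −0.65, −0.56 and −0.50), and Mvk, Ebp and Nsdhl in LMPP-like cells (−1.35, −0.78 and −0.53). Mvk, mevalonate kinase, acts between Hmgcs1 and Idi1, both of which were higher in batch 2. In SREBP control, without Insig1, 6 of 6 genes were higher in HSC-like and 5 of 6 in LMPP-like cells, and in lipoprotein uptake, without Apoe and Vldlr, 5 of 8 and 6 of 7 were higher, with none lower in either list. For storage and efflux 3 of 11 and 3 of 9 were higher and 0 and 2 lower, and for fatty acid synthesis 2 of 9 and 3 of 8 were higher and 2 and 2 lower, which is near or below the same background.

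Over the 27 sums of HSC-like, LMPP-like and cycling cells, genes whose log2(CPM + 1) was among the most like that of Apoe, among 5722 genes with a mean of at least 20 CPM, were Csgalnact1 (Pearson r = 0.968), Aldh1a1 (0.959), Gata2 (0.959) and Ptgs1 (0.954). Among those most like the mean of the 5 enzymes were Sc5d (0.987) and Cyp51 (0.986), both of the cholesterol synthesis list, Epc2 (0.971) and Usp7 (0.970). The sums share samples, libraries and batches, so these values are descriptions and carry no p.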

How the data were processed

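Per the labels, the authors made the deposited UMI counts per gene and barcode with Cell Ranger 3.1.0 on mm10, and each sample has its own matrix, with no pooling. Barcodes were kept with at most 10% mitochondrial UMIs, at most 6000 genes, 1000 to 40000 UMIs and a residual of genes on UMIs within 0.4, and genes seen in at least 3 cells. Integration and clustering used Seurat 5.3.0 (2975 features without 62 lipid genes, 30 dimensions of canonical correlation, 35 principal components, resolution 0.4). Scrublet marked 67 of 15856 cells (0.423%), which is too few for a working caller, so all cells stayed in and leaving out the top 5% of scores per sample was added after seeing the data, as were the Ctla2a cluster as a class and its interaction. UMIs were summed per sample and class, and cells were not used as replicates.

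Sums were tested with edgeR 4.0.16 (quasi-likelihood, TMM, filterByExpr, group and sequencing batch as terms, all 9 samples in a fit), with Benjamini-Hochberg adjustment over all genes tested at 0.05 and DESeq2 1.42.0 as an alternative. The difference between classes was tested with the sample as a block. Shares of cells were tested by exact permutation (numpy 2.4.6). CPM beside the tests are relative to all UMIs of the class. The summed UMIs per sample were 2044715–6561755 in HSC-like, 2668252–8893094 in LMPP-like, 3114042–10250443 in cycling cells and 3481316–7540702 in the Ctla2a cluster. Counts at this depth bear counting error, and all tests rest on 3 samples per group. Gene coordinates are from GENCODE M21 and start sites from RefSeq. The genes named are the 8 members, the genes of the pathway lists with an adjusted p under 0.05 between groups in HSC-like or LMPP-like cells, Srebf2 and, by correlation, the 5 genes most like Apoe and like the enzymes' mean, and some genes under this rule are not reported here. Members and lists were chosen with earlier results of these data known. The edgeR tests of aged over young in HSC-like cells, and of HSC-like against LMPP-like cells, were run on simulated counts with no batch difference. For the second of these tests the LMPP-like counts were drawn from HSC-like levels. These runs therefore do not bear on the batch term or on the real LMPP-like levels. The alternatives tried are given in the closing section.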

Additional observations from a re-analysis of the deposited data

Results flagged for a closer look

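In the test of HSC-like against LMPP-like cells, 2 results for CASIN over young were picked out because the group difference was unlike in the classes by edgeR. These groups differ in both age and treatment. For Apoe the group difference was larger in HSC-like cells by 0.53 on the log2 scale (adjusted p = 0.0478, edgeR). For Hmgcs1 it was lower in HSC-like cells, at −0.80 (adjusted p = 0.0380), and by marker gates this value was −0.33 (adjusted p = 0.322). All groups hold 3 samples, too few for a search for single outlying samples.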

How the results depend on the processing

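The Apoe calls in HSC-like cells kept their direction under every alternative tried. The aged over young call was lost without the batch term (1.39, adjusted p = 0.153, edgeR) and with a mitochondrial limit of 5% (0.79, adjusted p = 0.110), and the CASIN over young call without the batch term (1.44, adjusted p = 0.0893), which brought the counts of called genes to 0. With each sample left out in turn, Apoe in HSC-like cells was 1.17 to 1.62 for aged over young, 1.28 to 1.65 for CASIN over young and −0.087 to 0.30 for CASIN over aged. The count of called genes in HSC-like cells was then 1 to 3 for aged over young, where leaving out young 3, the one young sample of batch 2, added Vldlr (0.70, turned in sign, with −0.85 the lowest of its values) and Insig1 (0.72), and 1 to 2 for CASIN over young, where leaving out young 3 added Vldlr and leaving out CASIN 1 added Idi1 (−0.66, adjusted p = 0.0116). Over all LSK cells the count rose from 0 to 1 for aged over young with no filter, without cells that had a cycle score and in thinned cells, and for CASIN over young also with DESeq2 and with only the 2 groups compared, with 0 to 1 in both when samples were left out. In LMPP-like cells it was 1 with no filter in both comparisons with young and in thinned cells for aged over young, and in cycling cells it was 2 with no filter in both, with 0 to 1 when samples were left out of either class. These counts are of the genes described here. The share of all tested genes called in each of these fits, and in those below, is not given. A lost or gained call therefore cannot be told apart from a change in the whole fit.

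In the test of HSC-like against LMPP-like cells the count for aged over young was 1 with no filter or without the top 5% of doublet scores, 2 by marker gates and 0 to 1 with samples left out. For CASIN over young it was 0 without the batch term, 1 with a mitochondrial limit of 5%, without the top 5% of doublet scores and without cells that had a cycle score, and 0 to 3 with samples left out. The share of HSC-like cells with an Apoe UMI for CASIN over aged ran from −0.760 to 6.69 points with samples left out. In LMPP-like cells that share for CASIN over aged was −0.869 points at 2 or more UMIs, −0.669 with a mitochondrial limit of 5% and −2.89 to 1.84 with samples left out, and for CASIN over young −1.21 to 3.53. With samples left out, Apoe in HSC-like minus the Ctla2a cluster ran from −0.78 to 0.60 for aged over young and from −0.65 to 0.31 for CASIN over aged, turning without aged 1. The batch difference of Apoe turned with a mitochondrial limit of 5% over all LSK cells (−1.13), in HSC-like (−0.80) and in cycling cells (−0.10), by marker gates in LMPP-like cells (0.37) and without aged 1 in the Ctla2a cluster (0.58, from −0.82 without young 3), and that of Vldlr in cycling cells without young 3 (−0.51). The causes were not tested.

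Deviations of same-numbered samples from their group and batch levels correlated at −0.56 to 0.27. All samples numbered 1 are in batch 1 and all numbered 3 in batch 2. Since the batch was taken out first, these values cannot tell whether the replicate numbers pair the samples. With a replicate block beside the batch term, Apoe in HSC-like cells was 1.27 for aged over young (adjusted p = 0.00807) and 1.45 for CASIN over young (adjusted p = 0.000773), and no count of calls between groups moved, but the genes called by batch went from 6 to 4 in HSC-like and 8 to 6 in LMPP-like cells, and the batch difference of Fdft1 in cycling cells was −0.000434. Of the 116 values of single genes that were not called (those without an adjusted p under 0.05), 65 changed sign under some alternative. Depth bears most on Fdft1, which stood as low as 4.2 CPM in a sample.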

Other observations

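Apoe was also measured in 2 smaller clusters, which were not tested. In the 874 cells led by MHC class II genes, which present antigen, Apoe was 162, 197 and 349 CPM in young, 755, 403 and 287 CPM in aged, and 711, 710 and 502 CPM in CASIN samples. The aged samples overlapped the young ones there, through aged 3, and the CASIN samples did not. In the 279 cells led by interferon-induced genes, which respond to antiviral signals, it was 63.1, 110 and 157 CPM in young, 734, 671 and 230 CPM in aged, and 880, 855 and 582 CPM in CASIN samples, without overlap with young. The interferon cluster held as few as 16 cells in a sample. Vldlr in these interferon-led cells was 63.1, 63.0 and 73.8 CPM in young, 52.4, 14.2 and 20.4 CPM in aged, and 40.1, 52.9 and 14.8 CPM in CASIN samples, all below the young samples. The lowest of these Vldlr values rest on 5 UMIs in aged 2, 7 in aged 3 and 5 in CASIN 3. How many of all genes separated the groups in these clusters was not counted.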
